A study of Mus musculus with 4 samples.

Results

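The TCR complex and the coreceptors of double-positive (DP) thymocytes were followed through 10 genes, chosen by name from the 24421 genes listed: the CD3 chains *Cd3e*, *Cd3d*, *Cd3g* and *Cd247*, the coreceptors *Cd4*, *Cd8a* and *Cd8b1*, the accessory molecules *Cd2* and *Cd28*, and the activation marker *Cd69*. All 10 passed the filter on low values and were fitted together with all 10776 genes tested. RNA was sequenced from CD69+CD4+CD8+ (CD69+DP) thymocytes of C57BL/6 mice aged 6 weeks, in 2 control samples and 2 Foxa1/2cKO samples. Controls were Foxa1fl/flFoxa2fl/fl CD4Cre-, and Foxa1/2cKO were Foxa1fl/flFoxa2fl/fl CD4Cre+, so both groups carry the floxed alleles of both genes and differ in the transgene. Cre is driven by the *Cd4* promoter, so that deletion is limited to T-lineage cells from about the DP stage onwards. The paper states that the samples came from different mice, sorted independently, and gives 2 mice of each genotype for a sort. Whether cells of several mice were pooled into a library is not given in the sources used here. The question was whether transcripts of the receptor that reads the selecting signal differ between control and Foxa1/2cKO cells that have begun positive selection.

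The T-cell receptor cannot signal by itself. Its antigen-binding chains assemble with CD3 epsilon-delta and epsilon-gamma dimers and with a zeta dimer, the product of *Cd247*, and the cytoplasmic tails of these chains carry the tyrosine motifs that Lck phosphorylates and that then recruit ZAP-70. CD4 binds MHC class II and CD8 binds MHC class I, and both bring Lck to the receptor, while the DP stage is the one at which both are expressed together. During positive selection CD69 comes to the surface after a TCR signal, and CD8 is lowered before a cell settles on the CD4 or CD8 lineage.

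The cells were gated on CD69, CD4 and CD8 protein, so the gate bears directly on *Cd69*, *Cd4*, *Cd8a* and *Cd8b1*. The unit is FPKM (fragments scaled to gene length and to sample depth), so levels of different genes can be compared because they are per length. Recovered reads summed to 14201600 and 12817417 for control 1 and 2, and to 10193204 and 11043676 for Foxa1/2cKO 1 and 2. Depth was thus lower in both Foxa1/2cKO samples than in both controls. *Foxa1* and *Foxa2* were listed at 0 in all 4 samples and do not check the genotypes. The paper checked deletion by qRT-PCR in CD4 and CD8 single-positive thymocytes. There it detected both genes in control cells and neither in Foxa1/2cKO cells. All 10 fixed markers of DP thymocytes were detected in every sample, and the globin genes *Hba-a1*, *Hbb-bs* and *Hbb-bt* were listed at 0. Of these markers, 7 were highest in Foxa1/2cKO 2, *Cd4*, *Cd8a* and *Cd8b1* among them, and 2, *Ptcra* and *Arpp21*, were lowest in that sample. *Rag1*, a subunit of the recombinase that rearranges the *Tcra* locus in DP cells, was highest in the other sample of that group and had 363.5 and 374.7 FPKM in the controls against 449.5 and 368.3 FPKM in Foxa1/2cKO 1 and 2. Besides depth, the groups differed in the spread between their samples. Taken over genes, the log2 difference between samples of a group had an SD of 0.198 for control and of 0.405 for Foxa1/2cKO, and fold changes of the members and of related lists are given with and without Foxa1/2cKO 2.

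The 3 genes *Cd3g*, *Cd3d* and *Cd3e* lie side by side on chromosome 9 of GRCm38 (mm10), and their upstream sequences are shown because the proportions of the 3 transcripts are compared in the results. *Cd3g* runs on the minus strand from 44969572 to 44980431, *Cd3d* on the plus strand from 44981786 to 44987339 and *Cd3e* on the minus strand from 44998740 to 45009627. *Cd3g* and *Cd3d* are arranged head to head, with their starts 1355 bases apart, and *Cd3d* and *Cd3e* tail to tail, with their ends 11401 bases apart. The 250 bases upstream of each RefSeq start (GRCm38.p6) were taken at chr9:45009612-45009861 (minus) for *Cd3e*, chr9:44981536-44981785 (plus) for *Cd3d* and chr9:44980432-44980681 (minus) for *Cd3g*. They read 5′ to 3′ along the gene's strand, with matches to the ETS core AGGAAG and to the short forkhead core TGTTT in capitals on either strand.
Cd3e: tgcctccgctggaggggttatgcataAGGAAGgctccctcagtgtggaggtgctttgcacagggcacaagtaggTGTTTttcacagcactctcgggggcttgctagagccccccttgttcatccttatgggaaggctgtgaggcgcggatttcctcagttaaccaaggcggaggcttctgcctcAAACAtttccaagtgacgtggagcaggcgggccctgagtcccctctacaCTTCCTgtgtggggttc
Cd3d: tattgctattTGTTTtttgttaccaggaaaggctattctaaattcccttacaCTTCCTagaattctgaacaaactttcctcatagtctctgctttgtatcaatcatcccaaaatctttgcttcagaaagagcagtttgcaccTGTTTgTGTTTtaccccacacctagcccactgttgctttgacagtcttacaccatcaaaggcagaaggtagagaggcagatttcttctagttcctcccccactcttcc
Cd3g: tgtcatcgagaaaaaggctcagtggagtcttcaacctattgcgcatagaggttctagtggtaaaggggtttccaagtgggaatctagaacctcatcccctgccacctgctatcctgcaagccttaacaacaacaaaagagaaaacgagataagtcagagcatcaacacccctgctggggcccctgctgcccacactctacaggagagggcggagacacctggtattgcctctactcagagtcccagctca

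*Cd3d* held 3 matches to TGTTT and 1 to AGGAAG, *Cd3e* held 2 of each, and *Cd3g* held neither. TGTTT occurs in 46.4% and AGGAAG in 29.5% of 32851 RefSeq promoters over the same 250 bases. The longer forkhead sequence TGTTTAC, which contains the short core, occurs in 3.17% of these promoters and was not found in the windows of *Cd3e*, *Cd3d*, *Cd3g*, *Cd247* or *Cd8a*, the 5 genes matched by symbol. The RUNX core TGTGGT, present in 14.05% of promoters, was not found in these 5 windows. These matches describe letters only.

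The other members lie on chromosomes 1, 3 and 6. *Cd8b1* (chromosome 6, 71322788 to 71337494) and *Cd8a* (chromosome 6, 71373427 to 71379173) are both on the plus strand and 35933 bases apart. *Cd4* (chromosome 6, 124864692 to 124888221) and *Cd69* (chromosome 6, 129267325 to 129275436) are on the minus strand of the same chromosome. *Cd247* (chromosome 1, 165788681 to 165877277) and *Cd28* (chromosome 1, 60716800 to 60773359) are on the plus strand, and *Cd2* (chromosome 3, 101275899 to 101287939) is on the minus strand.

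The 10 transcripts were abundant in both groups. Ordered by the geometric mean FPKM over the 4 samples, *Cd8b1* came first (697), followed by *Cd3g* (695), *Cd8a* (525), *Cd2* (438), *Cd3e* (379), *Cd4* (369), *Cd3d* (350), *Cd28* (181), *Cd247* (128) and *Cd69* (111). *Cd69*, the lowest, still stood at or above 95.0% of the genes tested, and *Cd8b1*, the highest, at or above 99.7%. The order of *Cd8b1* and *Cd3g* was not settled, since *Cd8b1* was the higher in 2 of 4 samples, and the same held for *Cd3e* and *Cd4*. Among the other neighbours in the order, the higher gene was higher in all 4 samples, although the ranges over samples overlapped for all but *Cd3d* against *Cd28* and *Cd28* against *Cd247*. The smallest whole reads behind these values ranged from 1874 to 23111 per gene and sample, for which the counting error is 2.31% to 0.658%.

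**Figure D1:**
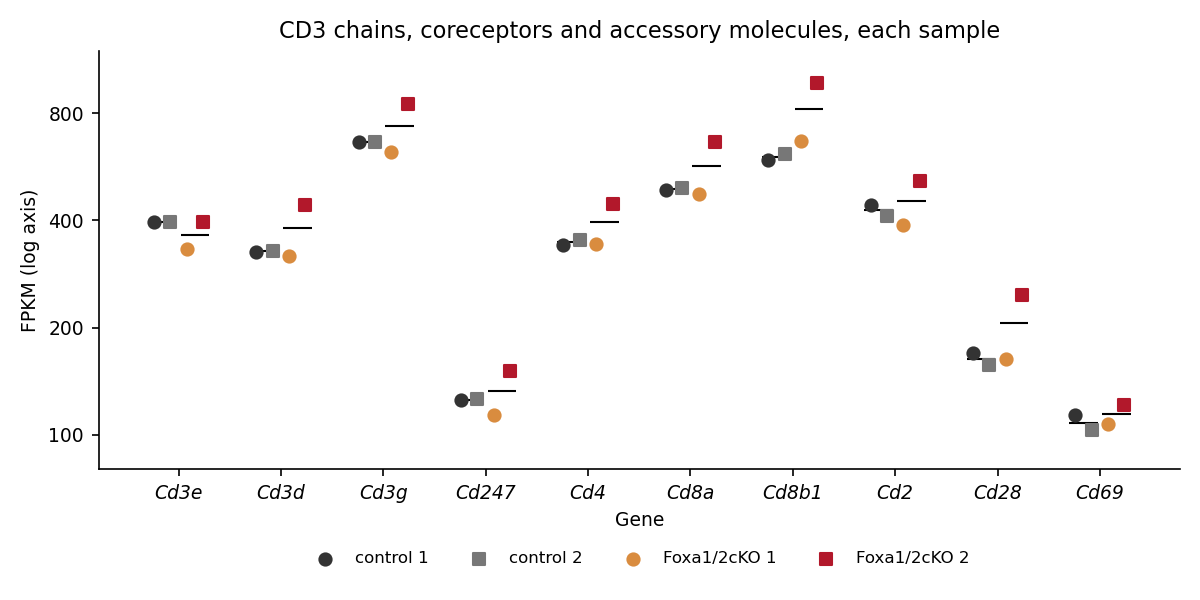
FPKM of the 10 genes on a log axis in each of the 4 samples, with a horizontal line at the mean of each group (n = 2). Foxa1/2cKO 2 (red squares) was the highest sample for 9 of the 10 genes, and *Cd8b1* is the gene whose Foxa1/2cKO values both exceed the controls.

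In the comparison of Foxa1/2cKO with control, no member passed the test. On log2(FPKM + 1), limma gave 0 of the 10 an adjusted p under 0.05 after Benjamini-Hochberg correction over all genes, of which it called 0.00928%. It gave 0 of the 10 an unadjusted p under 0.05, as it did 4.55% of all genes tested. With limma-voom on the recovered reads the counts were also 0 and 0, against 0% and 4.66% of the 11729 genes in that fit. The log2 fold change was above 0 in 9 members and below 0 in 1, *Cd3e*, where 51.3% of all genes tested were above 0. The median over the 10 was 0.15, against 0.01 over all genes tested. Without Foxa1/2cKO 2 the direction turned, with 2 of the 10 above 0 and a median of -0.046, where 47.9% of all genes were above 0. The groups did not overlap for 1 of the 10, *Cd8b1*, where 36.7% of all genes tested had groups that did not overlap. Without Foxa1/2cKO 1, where the lone Foxa1/2cKO 2 is assumed to vary like the controls, 8 of the 10 had an adjusted p under 0.05 (limma; all but *Cd3e* and *Cd69*), as did 25.4% of all genes in that fit. Leaving out Foxa1/2cKO 2 instead left 0 of the 10 past it. The smallest two-sided p of an exact permutation test in this design is 0.3333.

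In all 10 genes the Foxa1/2cKO samples differed from each other by more than the controls did. Between the controls the log2 difference of the members ran from -0.14 to 0.05, and the median absolute difference was 0.034, where that of all genes tested was 0.076. From Foxa1/2cKO 1 to Foxa1/2cKO 2 it ran from 0.17 to 0.59, with a median of 0.43, where the median absolute difference over all genes tested was 0.1998. Foxa1/2cKO 2 was above Foxa1/2cKO 1 in all 10 members, where it was in 53.7% of genes tested, and above it by at least 0.4 in 7 of the 10, where it was in 7.96% of genes tested. Foxa1/2cKO 2 lay above both controls in 9 of the 10 members (46.3% of genes tested). Foxa1/2cKO 1 lay below both controls in 6 of the 10 (40.7% of genes tested) and above both in 1, *Cd8b1* (36.4% of genes tested).

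**Figure D2:**
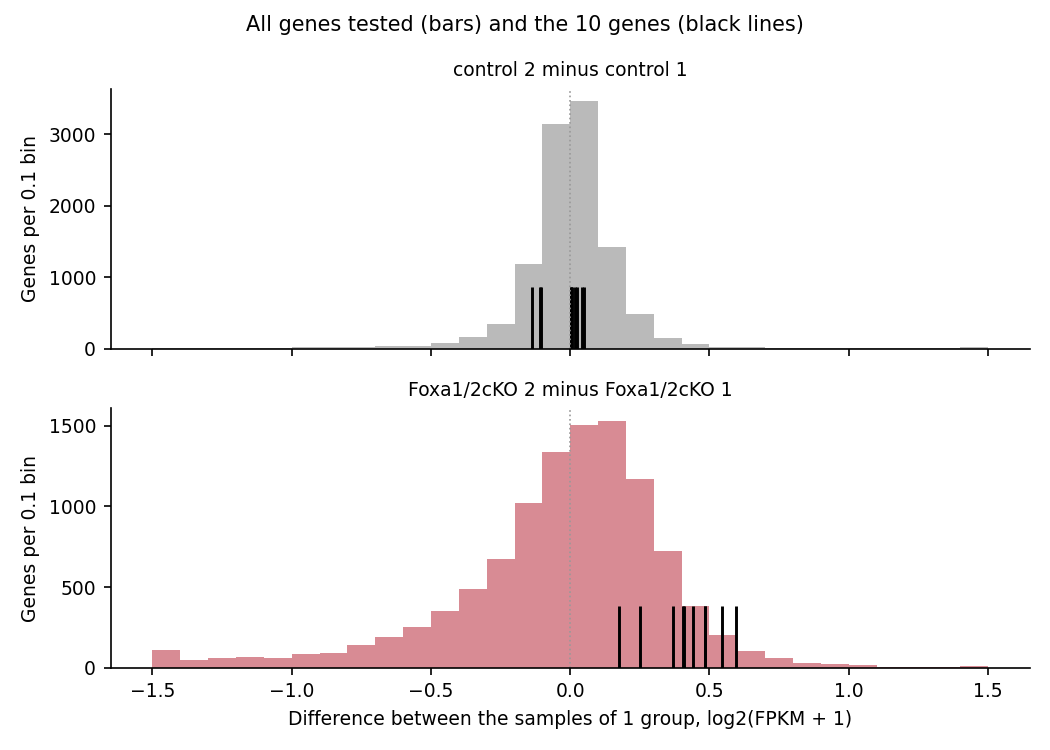
Difference between the 2 samples of a group on the log2(FPKM + 1) scale, for the controls (top) and for Foxa1/2cKO (bottom), with bars for the number of the 10776 genes tested in each bin of 0.1 and a black line for each of the 10 genes. The outermost bins also hold all genes beyond them. The 10 genes ran from -0.14 to 0.05 in the controls and from 0.17 to 0.59 in Foxa1/2cKO.

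Other measured values moved with Foxa1/2cKO 2. Of the 8 fixed markers of mature single-positive (SP) cells, 6 were lowest in Foxa1/2cKO 2, among them *Zbtb7b*, the factor that commits cells to the CD4 lineage, at 43.1 and 53.4 FPKM for control, then 47.1 for Foxa1/2cKO 1 but 10.9 for Foxa1/2cKO 2. *Il7r*, the receptor chain for interleukin-7, had 33.7 and 44.1 FPKM for control, then 41.5 for Foxa1/2cKO 1 but 13.4 for Foxa1/2cKO 2. The other 2, *S100a10* among them, were highest in that sample, and the summed level of the list was 446 to 474.5 in control and 457.8 to 502 in Foxa1/2cKO, with no marker at 0 in all samples. Of the 8 markers of TCR-signalled cells, 6 (*Cd69* itself included) were highest and 2 lowest in Foxa1/2cKO 2, and their summed level was 1595 to 1685 in control and 1479 to 1853 in Foxa1/2cKO. All 6 B cell markers were highest in Foxa1/2cKO 1, with a summed level of 50.6 to 76.2 in control and of 54.4 to 104 in Foxa1/2cKO. Their part in the members' values was not tested, and in bulk samples fewer cells of a type and less RNA per cell cannot be told apart.

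Markers of other cells were summed in the same way. The myeloid list summed to 82.9 to 103 FPKM in control and 104 to 126 in Foxa1/2cKO. Most of this was *Cst3*, at 82.6 and 70.1 for control, 82.5 for Foxa1/2cKO 1 and 116 for Foxa1/2cKO 2. In contrast, 4 of the 6 myeloid markers were lowest in Foxa1/2cKO 2. The thymic epithelial list summed to 3.18 to 3.26 in control and 3.69 to 4.18 in Foxa1/2cKO, and the erythroid list to 0.608 to 1.12 and 1.01 to 2.67. The natural killer list summed to 21.4 to 22.4 in control and 13.5 to 25.8 in Foxa1/2cKO. Of the gamma delta list, 2 of 4 markers were matched by symbol and summed to 9.12 to 11.0 and 4.84 to 9.04. For scale, the lowest *Cd3e* value was 332.9 FPKM, in Foxa1/2cKO 1. Shares of cells were not estimated from these levels, and the part of other cells in the members' values was not tested.

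Among the CD3 chains, *Cd3e* had a fold change below 0 and *Cd3d*, *Cd3g* and *Cd247* had one above 0. *Cd3e*, whose chain is part of both CD3 dimers, had an FPKM of 396.0 for control 1, 396.4 for control 2, 332.9 for Foxa1/2cKO 1 and 396.1 for Foxa1/2cKO 2. Foxa1/2cKO 1 was thus the low sample, and Foxa1/2cKO 2 fell between the controls. The means were 396 ± 0.301 for control and 364.5 ± 44.7 for Foxa1/2cKO (SD, n = 2 each). On the log2 scale the fold change was -0.13 with an error of 0.12 (SE, adjusted p = 0.868, limma), and it came to -0.25 without Foxa1/2cKO 2 and to -0.00049 without Foxa1/2cKO 1.

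*Cd3d*, which pairs with CD3 epsilon, had an FPKM of 325.5 for control 1, 329.2 for control 2, 316.9 for Foxa1/2cKO 1 and 443.6 for Foxa1/2cKO 2. The Foxa1/2cKO samples lay on either side of the controls. Its log2 fold change of 0.20 (SE 0.18, adjusted p = 0.868, limma) became -0.047 without Foxa1/2cKO 2 and 0.44 without Foxa1/2cKO 1. *Cd3g*, the partner of epsilon in the other dimer and the most abundant of the 4, had an FPKM of 663.6 for control 1, 664.6 for control 2, 624.5 for Foxa1/2cKO 1 and 848.9 for Foxa1/2cKO 2. As for *Cd3d*, the lowest and the highest sample were both Foxa1/2cKO. The log2 fold change of *Cd3g* was 0.13 (SE 0.17, adjusted p = 0.893, limma), and -0.089 without Foxa1/2cKO 2.

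*Cd247*, which encodes the zeta chain, had an FPKM of 125.1 for control 1, 125.7 for control 2, 113.9 for Foxa1/2cKO 1 and 151.3 for Foxa1/2cKO 2. As with *Cd3d* and *Cd3g*, its lowest and its highest sample were both Foxa1/2cKO samples. Its log2 fold change, 0.07 (SE 0.15, adjusted p = 0.939, limma), became -0.14 without Foxa1/2cKO 2. The far end of *Cd247* overlaps *Pou2f1*, a gene on the opposite strand, and of all 50-base stretches in its longest annotated transcript 78.6% are also found in transcripts of *Pou2f1* on one strand or the other. For the gene counts, unlike the exon counts, which were made without strand, the strand setting is not given in the sources used here, so reads from that region cannot be assigned with certainty. *Pou2f1* itself was listed at 4.62 to 6.65 FPKM. The other 9 members shared at most 6.28% of their stretches with another gene, the highest being *Cd8b1*.

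Ratios of 2 genes within a sample do not depend on how samples were scaled to each other, and *Cd3e* was compared with the other chains in this way. The ratio of *Cd3e* to *Cd3d* was 1.22 and 1.20 for the controls, then 1.05 for Foxa1/2cKO 1 and 0.893 for Foxa1/2cKO 2. Both Foxa1/2cKO samples were below both controls. The log2 ratio was 0.27 ± 0.010 in control and -0.046 ± 0.17 in Foxa1/2cKO, with SD and n = 2 each. The difference was -0.32 (exact permutation p = 0.3333, the smallest possible). Of all other genes tested, 28.1% had a ratio to *Cd3d* that was lower in both Foxa1/2cKO samples than in both controls, and 1.79% had one that was higher. Both shares depend on *Cd3d* itself, which was higher in Foxa1/2cKO 2 than in Foxa1/2cKO 1 by 0.48 on the log2 scale. The ratio of *Cd3e* to *Cd3g* was 0.597 in both controls, then 0.534 for Foxa1/2cKO 1 and 0.467 for Foxa1/2cKO 2, likewise without overlap. *Cd3g* to *Cd3d* differed less, with 2.04 and 2.02 for control against 1.97 and 1.91 for Foxa1/2cKO. *Cd247* to *Cd3e* was 0.318 and 0.319 for control, then 0.344 for Foxa1/2cKO 1 and 0.384 for Foxa1/2cKO 2, thus higher. *Cd247* to *Cd3d* was lower, with 0.386 and 0.384 for control against 0.3615 and 0.343 for Foxa1/2cKO. *Cd247* to *Cd3g* was also lower, with 0.190 in both controls against 0.184 and 0.179 for Foxa1/2cKO. A mean over the 3 chains averages these opposite differences. For *Cd247* against the mean of *Cd3e*, *Cd3d* and *Cd3g* on the log2 scale, the ratio was 0.286 in both controls, then 0.284 for Foxa1/2cKO 1 and 0.287 for Foxa1/2cKO 2. The log2 ratio ran from -1.82 to -1.80 over the 4 samples, with groups that overlapped (exact permutation p = 1).

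The coreceptors were led by *Cd8b1*, which encodes the CD8 beta chain of the CD8 alpha-beta heterodimer found on thymocytes. It had an FPKM of 592.3 for control 1, 613.5 for control 2, 668.1 for Foxa1/2cKO 1 and 974.2 for Foxa1/2cKO 2, and both Foxa1/2cKO samples were above both controls. With limma the log2 fold change was 0.42 (SE 0.20) and missed the threshold (unadjusted p = 0.0918, adjusted p = 0.863), and limma-voom on the recovered reads put the unadjusted p at 0.0740. Without Foxa1/2cKO 2 the fold change was 0.15. Without Foxa1/2cKO 1 it was 0.69 and past the threshold (adjusted p = 0.000603, limma), where its adjusted p over all alternatives ran from 0.000603 to 1. The study named *Cd8b1* among its differentially expressed genes, as higher in Foxa1/2cKO, at an FDR-adjusted p under 0.05. Its test was DESeq2 on gene counts with p-values re-estimated by fdrtool, which differs from limma on FPKM. Both rest on these same samples, so the direction of *Cd8b1* here is not independent evidence.

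*Cd8a*, the CD8 alpha chain, had an FPKM of 486.5 for control 1, 495 for control 2, 475.5 for Foxa1/2cKO 1 and 665.6 for Foxa1/2cKO 2. Foxa1/2cKO 1 was the lowest and Foxa1/2cKO 2 the highest of the 4 samples. For *Cd8a* the log2 fold change was 0.20 (SE 0.18, adjusted p = 0.868, limma), and -0.046 without Foxa1/2cKO 2. *Cd4* had an FPKM of 341.9 for control 1, 352.3 for control 2, 344.5 for Foxa1/2cKO 1 and 445.7 for Foxa1/2cKO 2. Foxa1/2cKO 1 fell between the controls. The fold change of *Cd4* was 0.17 on the log2 scale (SE 0.15, adjusted p = 0.864, limma), and -0.011 without Foxa1/2cKO 2.

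The proportion of the CD8 chains was compared within each sample. The ratio of *Cd8b1* to *Cd8a* was 1.22 and 1.24 for the controls, then 1.404 for Foxa1/2cKO 1 and 1.46 for Foxa1/2cKO 2. Both Foxa1/2cKO samples were above both controls. On the log2 scale it was 0.30 ± 0.018 for control and 0.52 ± 0.042 for Foxa1/2cKO (SD, n = 2 each), a difference of 0.22 with a range of 0.19 to 0.25 when any single sample was omitted (exact permutation p = 0.3333, the smallest possible). Of all other genes tested, 1.72% had a ratio to *Cd8a* that was higher in both Foxa1/2cKO samples than in both controls, and 28.2% had one that was lower. Both shares depend on *Cd8a* itself, which was higher in Foxa1/2cKO 2 than in Foxa1/2cKO 1 by 0.48 on the log2 scale. A high *Cd8a* makes higher ratios rarer. The ratio of *Cd4* to *Cd8a* was 0.703 and 0.712 for the controls, then 0.725 for Foxa1/2cKO 1 and 0.670 for Foxa1/2cKO 2. Here the groups overlapped, with a log2 difference of -0.02 (exact permutation p = 1). *Cd4* to *Cd8b1* was 0.578 and 0.575 for control against 0.516 and 0.458 for Foxa1/2cKO.

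**Figure D3:**
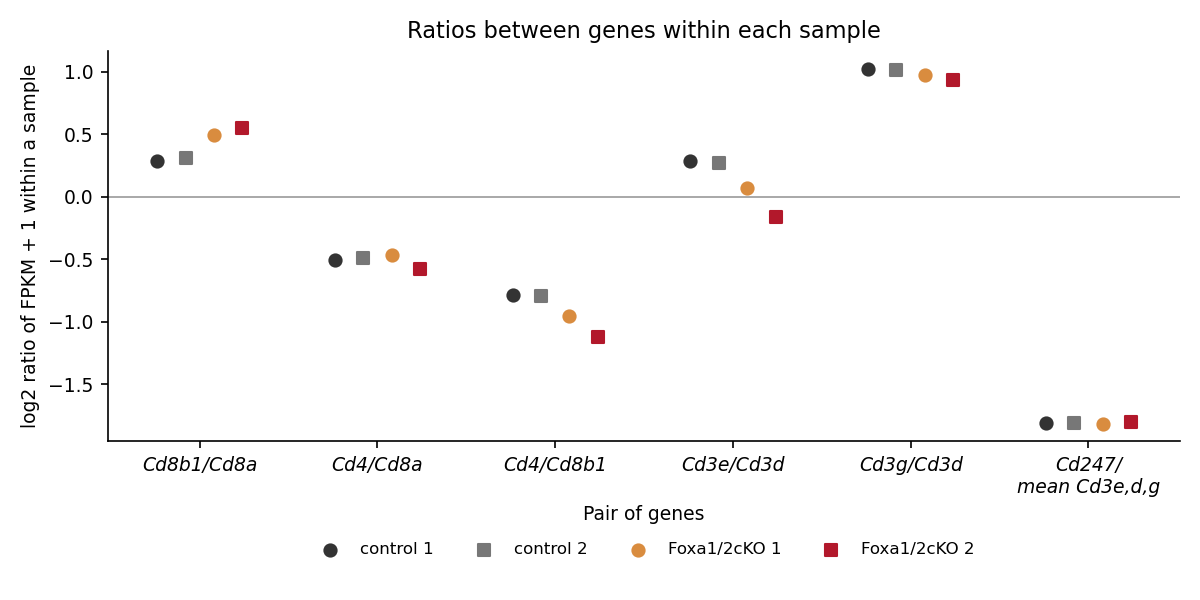
Log2 ratio of FPKM + 1 between pairs of genes within each of the 4 samples. *Cd8b1*/*Cd8a* was higher and *Cd4*/*Cd8b1* and *Cd3e*/*Cd3d* were lower in both Foxa1/2cKO samples than in both controls, while *Cd4*/*Cd8a* overlapped between the groups and *Cd247* against the mean of the other chains ran from -1.82 to -1.80 over the 4 samples. Ratios of *Cd247* to each single chain, whose groups did not overlap, are not shown.

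In all, 10 ratios were compared, of which 3 had been planned and 7 were chosen after the values were seen. In 8 of the 10 the groups were apart, where 29.9% of genes tested had a ratio to *Cd8a* and 29.8% a ratio to *Cd3d* without overlap. Shares for ratios to *Cd3e*, *Cd3g*, *Cd8b1* or the mean of the chains were not computed, so the count of 8 has no like background. The 10 ratios share genes and are not independent. Adjusted over the 10, the exact permutation p of the 8 was 0.417. Set against the median of the 10 members in the same sample, the groups were apart for 7 of the 10, *Cd3d*, *Cd3g*, *Cd4*, *Cd8a*, *Cd8b1* and *Cd28* being higher and *Cd3e* lower, where they were for 20.96% of all genes tested. The members themselves set that median, so a shift in 1 member moves the others, and the share over all genes is not a like comparison. In both controls and in Foxa1/2cKO 1 the median lay midway between *Cd3e* and *Cd4*. Their values in these samples are therefore opposite by construction. *Cd8b1* stood at 0.69 and 0.71 for control against 0.98 and 1.13 for Foxa1/2cKO on the log2 scale, and *Cd3e* at 0.11 and 0.08 in the controls and at -0.02 and -0.17 in Foxa1/2cKO.

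The accessory molecules included the member with the widest gap between the Foxa1/2cKO samples. *Cd28*, the receptor for CD80 and CD86 that gives the costimulatory signal, had an FPKM of 169.7 for control 1, 157.4 for control 2, 163.6 for Foxa1/2cKO 1 and 247.4 for Foxa1/2cKO 2. Foxa1/2cKO 1 lay between the controls and Foxa1/2cKO 2 was 1.51 times as high as Foxa1/2cKO 1. With limma the log2 fold change of *Cd28* was 0.30 (SE 0.21, adjusted p = 0.863), and 0.0016 without Foxa1/2cKO 2. *Cd2*, an adhesion molecule that binds CD48 in the mouse, had an FPKM of 442.4 for control 1, 411.8 for control 2, 389.7 for Foxa1/2cKO 1 and 517.7 for Foxa1/2cKO 2. The lowest and the highest sample were both Foxa1/2cKO. Its log2 fold change of 0.07 (SE 0.16, adjusted p = 0.935, limma) became -0.13 without Foxa1/2cKO 2. Exon usage of *Cd28* was not analysed here.

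*Cd69*, a C-type lectin that is induced by TCR signals and holds cells in the tissue by lowering the receptor S1PR1, had an FPKM of 113.3 for control 1, 103 for control 2, 107.1 for Foxa1/2cKO 1 and 121 for Foxa1/2cKO 2. Foxa1/2cKO 1 lay between the controls, and the difference between the Foxa1/2cKO samples, 0.17 on the log2 scale, was the smallest of the 10 members and close to that between the controls. The log2 fold change of *Cd69* was 0.08 (SE 0.11, adjusted p = 0.897, limma), and -0.012 without Foxa1/2cKO 2. All these cells had been sorted for CD69 at the surface.

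**Figure D4:**
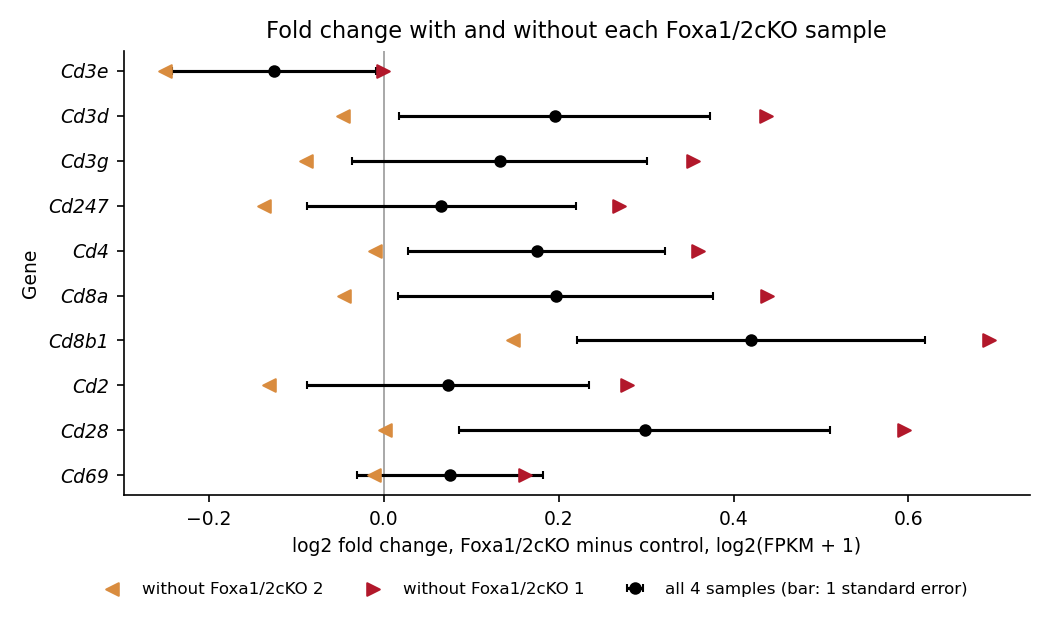
Log2 fold change of each gene, Foxa1/2cKO minus control on log2(FPKM + 1), from all 4 samples (black, bar of 1 standard error) and without Foxa1/2cKO 2 (orange) or Foxa1/2cKO 1 (red). Without Foxa1/2cKO 2, *Cd8b1* (0.15) and *Cd28* (0.0016) were the genes not below 0.

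Related genes were followed in lists drawn up by function. Of 37 genes of proximal TCR signalling, the kinases, adaptors and phosphatases that act near the receptor, 32 had a log2 fold change above 0 and 5 below 0, with a median of 0.13. Without Foxa1/2cKO 2 the split was 15 above 0 and 22 below, with a median of -0.047. None had an adjusted p under 0.05 from limma. An unadjusted p under 0.05 was found for 1 (4.55% of all genes tested), *Cbl*, a ubiquitin ligase that restrains the signal. *Cbl* had 58.0 and 51.0 FPKM in the controls and 75.35 and 91.6 for Foxa1/2cKO, with a log2 fold change of 0.60. Foxa1/2cKO 2 was above Foxa1/2cKO 1 in 30 of the 37. Of the 25 regulators of the coreceptor genes, 15 were above 0 and 10 below, with a median of 0.08, and 0 had an unadjusted or adjusted p under 0.05 (limma). The split was 6 above and 19 below without Foxa1/2cKO 2, and the median -0.054.

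Of 21 genes of the CD28 and CD2 families and other costimulators, 18 were tested, 10 above 0 and 8 below, with a median of 0.07. Without Foxa1/2cKO 2 the counts were also 10 and 8, with a median of 0.051. An unadjusted p under 0.05 was found for 3 of the 18 (4.55% of all genes tested) and an adjusted p under 0.05 for 0 (limma). The 3 were *Slamf6*, which signals between thymocytes, *Cd226* and *Cd96*, a pair of receptors for nectin-like ligands. *Slamf6* was at 45.8 and 46.8 FPKM for control against 55.2 and 64.0 for Foxa1/2cKO. *Cd226* was at 14.9 and 14.4 for control against 17.8 and 20.4 for Foxa1/2cKO. *Cd96* was at 73.3 and 73.0 for control against 89.5 and 130 for Foxa1/2cKO. Over the list, 5 of the 18 had groups without overlap (36.7% of all genes tested).

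Of 13 genes of CD3 and TCR assembly, 10 were tested, 3 above 0 and 7 below, with a median of -0.06. It was 5 and 5 without Foxa1/2cKO 2, with a median of -0.0050. The list held 1 gene with an unadjusted p under 0.05 (limma), as 4.55% of all genes tested had. This was *Ptcra*, which encodes the pre-TCR alpha chain that is replaced once *Tcra* has been rearranged. *Ptcra* had 11.25 and 11.9 FPKM for control, then 7.44 for Foxa1/2cKO 1 and 3.23 for Foxa1/2cKO 2, for which limma gave a log2 fold change of -1.08 (SE 0.34, unadjusted p = 0.0273, adjusted p = 0.863), or of -0.58 without Foxa1/2cKO 2. Of 19 genes linked to CD69, egress and early TCR responses, 18 were tested, 10 above 0 and 8 below, with a median of 0.01. These were 7 and 11 without Foxa1/2cKO 2, with a median of -0.056. None had an adjusted p under 0.05 from limma, and 1 had an unadjusted p under 0.05 (4.55% of all genes tested). *S1pr1*, the egress receptor that CD69 lowers, had 12.3 and 13.9 FPKM for control, then 13.4 for Foxa1/2cKO 1 but 6.40 for Foxa1/2cKO 2, with groups that overlapped.

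**Figure D5:**
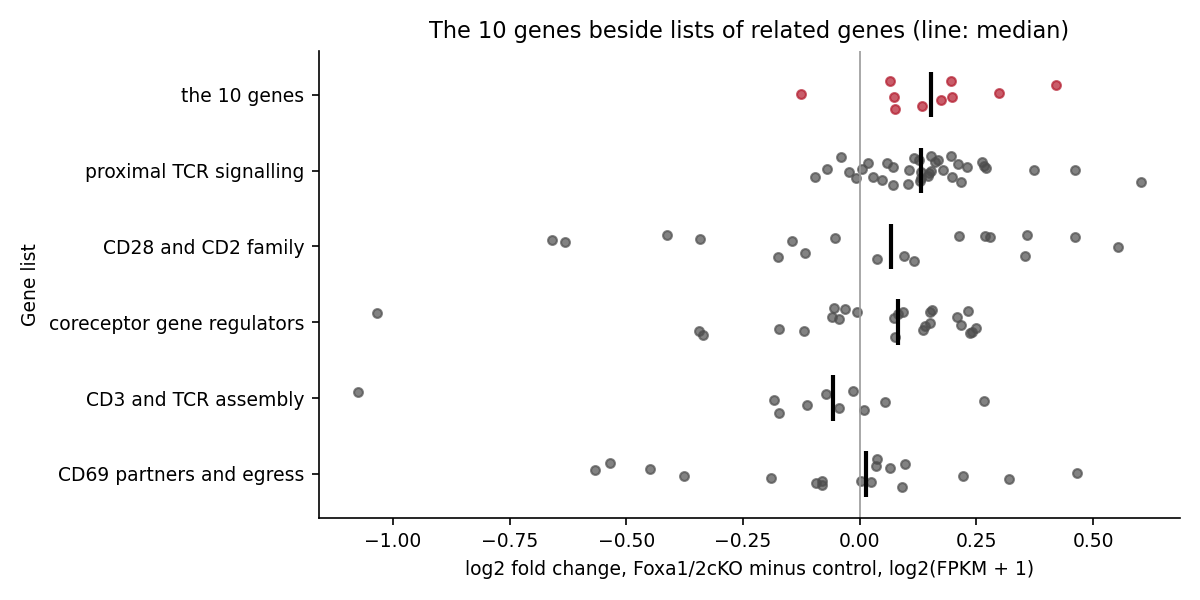
Log2 fold change, Foxa1/2cKO minus control on log2(FPKM + 1), of the 10 genes (red) and of the tested genes of 5 related lists (grey), each with its median as a vertical line. Vertical position within a list is only to keep points apart. The medians were 0.15 for the 10 genes and 0.13, 0.07, 0.08, -0.06 and 0.01 for the lists from top to bottom, and without Foxa1/2cKO 2 they were -0.046 for the 10 genes and -0.047, 0.051, -0.054, -0.0050 and -0.056 for the lists.

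The genes next to the members were taken for comparison. Of the 14 nearest protein-coding neighbours that are not members and had an FPKM of at least 1 in a sample, 7 had a log2 fold change above 0 and 7 below, with a median of 0.01 and a range from -0.34 to 0.17. None had an unadjusted p under 0.05 from limma or an adjusted one, and Foxa1/2cKO 2 was above Foxa1/2cKO 1 in 7 of the 14. *Rmnd5a*, next to *Cd8a* at a distance of 9461 bases, was at 147 and 158 FPKM for control against 152 and 171 for Foxa1/2cKO. *Smyd1*, 555 bases from *Cd8b1*, was at 1.91 and 1.93 FPKM for control against 2.09 and 2.47 for Foxa1/2cKO. *Ube4a*, the neighbour of *Cd3g* at 3972 bases, was at 20.6 and 19.6 FPKM for control against 21.98 and 19.6 for Foxa1/2cKO.

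Over the 4 samples, the gene nearest to the mean profile of the 4 CD3 chains, among 6649 genes with a mean FPKM of at least 10, was *Lxn*, with a root mean square distance of 0.0077 on the log2 scale. *Vps11*, *Zfand3* and *Timp2* were also among the 5 nearest. *Lxn*, which encodes a carboxypeptidase inhibitor, had 18.4 and 18.6 FPKM for control, then 16.8 for Foxa1/2cKO 1 and 22.7 for Foxa1/2cKO 2. Nearest to the mean profile of *Cd4*, *Cd8a* and *Cd8b1* were *Pnrc1* (distance 0.011), *Ppt2*, *1700017B05Rik*, *Sqstm1* and *Supt4a*. With 4 samples such likeness is a description.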

How the data were processed

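The 10 genes and the lists were chosen with earlier results of these data known. Reads were aligned by the authors to mm10 (RefSeq genes), and HTSeq in union mode counted them. The submitters' processing notes also name TopHat and Picard. The deposited table gives 1 FPKM for each gene in each sample, and the step that made them is not given in the sources used here. The steps between low values gave back whole reads for 100% of the 13244 genes above 0 in all samples, within at most 0.003 of a read, as the smallest whole numbers, so that a common divisor is not known. The depth found from them is the divisor of the FPKM, 10796528 to 14968316 per sample. In Foxa1/2cKO 2 it lay closer to the recovered reads (11093927 against 11043676) than in Foxa1/2cKO 1 (10796528 against 10193204) or the controls. Summed FPKM was 382436 in Foxa1/2cKO 2 and 366871 to 372671 in the other samples. The limma-voom fit took the same divisor as depth and so does not check it. Counting errors cover counting only, and p-values measure the spread between these samples.

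Because the values are FPKM and not counts, groups were compared with limma 3.58.1 (R 4.3.3) on log2(FPKM + 1) with a mean-variance trend, for genes reaching 1 FPKM in 2 or more samples, with Benjamini-Hochberg adjusted p-values called at 0.05. On this scale a change of a low gene is understated. The fit had 2 residual and 2.69 prior degrees of freedom. Exact permutation tests were two-sided. Ratios were taken on log2(FPKM + 1). Alternatives were a pseudocount of 0.1, no filter, an FPKM of at least 5 in all samples, upper-quartile scaling, an equal sum of FPKM, a loess correction for transcript length, a replicate block, both together, no variance trend, a threshold of 0.1 and leaving out each sample; limma-voom on recovered reads was chosen after seeing the data. Named beside the members were genes of a list with an unadjusted p under 0.05, nearest neighbours and the 5 genes most alike in profile; other genes were named after their values were seen, and some genes that meet these rules are not reported here. Positions are from GENCODE M21 (GRCm38) and promoters from RefSeq (GRCm38.p6). Tables used pandas 2.3.3 and numpy 2.4.6 in Python 3.11.15, tests scipy 1.17.1 and figures matplotlib 3.10.9.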

Additional observations from a re-analysis of the deposited data

How the results depend on the processing

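For the 10 members, all 100 log2 fold changes under alternatives other than leaving out a sample kept their direction and had an adjusted p of 0.834 to 0.998 (limma). Foxa1/2cKO 2 decided most directions. Omitting 1 sample at a time, the fold change (log2) ran from -0.047 to 0.44 for *Cd3d*, -0.089 to 0.35 for *Cd3g*, -0.14 to 0.27 for *Cd247*, -0.011 to 0.36 for *Cd4*, -0.046 to 0.44 for *Cd8a*, -0.13 to 0.28 for *Cd2* and -0.012 to 0.16 for *Cd69*, and these 7 turned below 0 without Foxa1/2cKO 2, which also moved the median of the members to -0.046. The number of members with an adjusted p under 0.05 ran from 0 to 8, and with an unadjusted p under 0.05 from 0 to 8 (limma). Both counts of 8 (adjusted: all but *Cd3e* and *Cd69*) came without Foxa1/2cKO 1, where 25.4% of all genes had an adjusted and 40.1% an unadjusted p under 0.05, and where the lone Foxa1/2cKO 2 is assumed to vary like the controls; without Foxa1/2cKO 2 there were 0 and 3 members, against 0.224% and 17.7% of all genes. Over all genes, 1 gene was called with all samples, and 0 with a pseudocount of 0.1, no filter, the stricter filter, either scaling, without a control, or limma-voom. Members whose groups did not overlap numbered 1 with all samples, 2 with upper-quartile scaling and 2 with an equal sum of FPKM, *Cd3e* being added as lower, where 36.7%, 37.5% and 37.5% of all genes did not overlap. With a sample left out, so that fewer samples must be separated, it was 4 without control 1, 2 without control 2, 9 without Foxa1/2cKO 1 and 7 without Foxa1/2cKO 2, against 58.3%, 51.8%, 85.9% and 77.1% of all genes.

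With the replicate block, 0 of the 10 members had an adjusted p under 0.05, the median was 0.15, and 378 genes had an unadjusted p under 0.05, against 490 without it. The deviations of same-numbered samples correlated at -0.0587 over 10776 genes. Neither a small shift shared by same-numbered samples nor a shared sort of the 2 groups can be told from this correlation. The difference in log2 ratio of *Cd4* to *Cd8a* was 0.04 without Foxa1/2cKO 2. In each member the fold change with all samples was smaller in size than the log2 difference between its Foxa1/2cKO samples, and no member passed the test. The size of change that 2 samples a group could show at this spread was not computed.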
